A study of Mus musculus with 11 samples.

Results

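Interferon-stimulated genes are transcribed when a cell has sensed viral or misplaced nucleic acid, or when interferon released by another cell binds its receptors. The 39 genes described here are a set of such genes listed by name, drawn up with earlier results of these data known. They were found by symbol among the 53801 gene identifiers of each count table, and all 39 were present. They comprise 4 transcription factors, 5 nucleic acid sensors, 5 genes of the OAS family and PKR, 4 IFIT genes, 7 genes around ISG15, ubiquitin and ADP-ribose, 10 other antiviral effectors and 4 genes of antigen presentation.

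RNA was sequenced from cultured neural stem cells of E13.5 mouse brains (strain C57BL/6 mixed with 129SV), in which Smg6, encoding an endonuclease of nonsense-mediated mRNA decay, could be deleted. The cultures were grown with EGF and bFGF, and every embryo carried Smg6 Flox/Flox, so no group was wild type for Smg6. The Ctr group was Smg6 Flox/Flox; RosaCreER tg/+ with no treatment (n = 3, embryos SMH_128, SMH_132 and SMH_133). The Ctr + 4-OHT group was Smg6 Flox/Flox; RosaCreER +/+ and received 4-OHT, the ligand that activates CreER (n = 4, embryos SMH_125, SMH_126, SMH_129 and SMH_131). The Smg6-iKO group was Smg6 Flox/Flox; RosaCreER tg/+ and received 4-OHT (n = 4, embryos SMH_127, SMH_128, SMH_132 and SMH_133). 4-OHT was given at 1 µM. Its duration is 3 days in the labels, with RNA taken 6 days after its start, while the paper can be read as 4-OHT being present for all 6 days. Each library came from the culture of 1 embryo, and embryos SMH_128, SMH_132 and SMH_133 gave both a Ctr and a Smg6-iKO library. RosaCreER is expressed from a ubiquitous locus, so the deletion was not directed to one cell type in these cultures. Ctr + 4-OHT differed from Ctr in both CreER genotype and 4-OHT, which cannot be told apart. Smg6-iKO differed from Ctr + 4-OHT in CreER genotype as well as in the deletion, and from Ctr in 4-OHT as well as in the deletion.

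In the textbook pathway, the RNA sensors RIG-I (Ddx58) and MDA5 (Ifih1) or the DNA sensor cGAS lead to the release of type I interferon. Interferon bound to its receptor activates the kinases JAK1 and TYK2, which phosphorylate STAT proteins. STAT2 acts with IRF9 at the interferon-stimulated response element (ISRE) in the promoters of the target genes, and interferon gamma acts through the gamma-activated site (GAS). Many of the targets are themselves sensors and signalling proteins, and others, such as Usp18, limit the response. B2m and Tap1 are also made without interferon, for antigen presentation by MHC class I.

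The promoters of the members were searched for the ISRE core, since this element is the sequence that the family is known to share. RefSeq promoters on GRCm38.p6 span 250 bases before to 50 after each annotated start, and 31 of the 39 members had an entry. Dhx58, Zbp1, Oas2, Usp18, Parp9, Parp14, Rtp4 and Ifi27 had none. The core GAAANNGAAA, on either strand, was found in 15 of the 31 members (48.4%), beside 1079 of 27025 genes of the table (3.99%). The GAS core TTCNNNGAA, which reads the same on both strands, was found in 8 of the 31 members (25.8%), beside 2582 of 27025 genes (9.55%). A match is a description of letters and does not show that a factor was bound. The lines below give the match with 10 bases on each side (8 at the window's end in Ifih1) in 8 members, 5′ to 3′ on the strand of the gene, with the ISRE core in capitals. They are the members with the smallest p in any comparison among those with a match, and where a promoter had several matches the first is shown.
Rsad2, chr12:26456553-26456582, minus strand: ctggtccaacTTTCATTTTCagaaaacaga
B2m, chr2:122147538-122147567, plus strand: ataagaacatGAAACTGAAAatgggaaagt
Ddx58, chr4:40239804-40239833, minus strand: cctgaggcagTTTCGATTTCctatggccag
Ifitm3, chr7:141010723-141010752, minus strand: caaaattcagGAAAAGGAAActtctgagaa
Stat2, chr10:128270266-128270295, plus strand: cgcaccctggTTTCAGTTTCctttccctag
Bst2, chr8:71537583-71537612, minus strand: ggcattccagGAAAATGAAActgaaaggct
Ifih1, chr2:62646206-62646233, minus strand: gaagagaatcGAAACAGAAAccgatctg
Isg15, chr4:156200877-156200906, minus strand: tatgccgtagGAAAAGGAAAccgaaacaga
With the annotated start as position 0, the match began at -120 in Rsad2, -139 in B2m, -222 in Stat2, -130 in Bst2 and -78 in Isg15. In Ddx58, Ifitm3 and Ifih1 it began at 2, 2 and 32, within the first transcribed bases. Isg15 held 3 overlapping matches and Bst2 2, in which neighbouring matches share a GAAA.

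A second pair is shown because it bears on the counting. Ifit3 and Ifit3b are near-identical copies on chromosome 19, and the windows around their ISRE cores had the same letters.
Ifit3, chr19:34583363-34583392, plus strand: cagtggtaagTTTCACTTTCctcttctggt
Ifit3b, chr19:34607759-34607788, plus strand: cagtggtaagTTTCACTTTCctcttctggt
Only reads that mapped to a single place were counted, so reads from parts that the copies share were lost, and the counts of both genes are uncertain. This pair was added after the values were seen.

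The libraries held 26418249 to 33756875 counted reads. Levels are given as CPM, each library's counts scaled to the same total with TMM scaling over the 11 libraries. At these depths 3 reads, the limit that a count of 0 allows, corresponded to 0.0875 to 0.115 CPM in a library, which covers counting error only. Smg6 itself was read at 69.4, 79.4 and 74.3 CPM in Ctr, at 66.5, 72.0, 72.3 and 66.6 CPM in Ctr + 4-OHT and at 62.5, 62.3, 71.9 and 67.5 CPM in Smg6-iKO. The groups overlapped, with a log2 fold change of -0.06 ± 0.07 (SE) against Ctr + 4-OHT and -0.17 ± 0.07 against Ctr (edgeR quasi-likelihood test, adjusted p = 0.703 and 0.148). With the embryo as a block the second was -0.15 and passed the test. The counts cover the whole gene and do not show the loss of the floxed part.

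The labelled cell type was checked against its markers. The 10 neural progenitor genes such as Nes and Sox2 summed to 5000 to 6450 CPM. The sums of 6 neuronal genes were 1590 to 2580 CPM, of 5 astrocyte genes 1320 to 1950 CPM and of 5 oligodendrocyte lineage genes 235 to 398 CPM. The 6 erythroid genes summed to 0.0353 to 0.467 CPM and 7 endothelial genes to 5.72 to 9.39 CPM. The 8 pericyte and fibroblast genes ranged from 285 to 1540 CPM, with the lowest and highest sums both in Smg6-iKO. Of 13 microglia and macrophage genes, 10 to 13 had a read in each library, and they summed to 3.54, 6.01 and 4.94 CPM in Ctr embryos SMH_128, SMH_132 and SMH_133, 3.94 to 4.21 CPM in Ctr + 4-OHT and 4.35 to 5.93 CPM in Smg6-iKO. Ctr SMH_132 had the highest sum and the 4 Ctr + 4-OHT libraries lay below the 4 Smg6-iKO libraries. In bulk RNA, fewer cells of a type and less RNA per cell cannot be told apart.

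Per kilobase of gene, the members' mean levels in Ctr ranged from 0.00452 CPM (Oas3) to 55.9 CPM (B2m). B2m, the light chain of MHC class I, was highest, at 55.9 ± 3.38 CPM per kilobase in Ctr, 43.4 ± 3.20 in Ctr + 4-OHT and 45.9 ± 3.44 in Smg6-iKO (SD, n = 3, 4 and 4). Ifitm3, a membrane protein that restricts virus entry, followed at mean levels of 33.8, 28.7 and 42.4 CPM per kilobase. The tether Bst2 came next at 10.6, 6.97 and 8.31, then Stat2 at 4.39, 4.96 and 5.24, with Eif2ak2, the kinase PKR, and the peptide transporter Tap1 close behind. Eif2ak2 was at 3.98, 3.57 and 3.79 and Tap1 at 3.44, 3.51 and 4.54, and their library values overlapped in each group. At the low end, Oas1a, Oas2 and Oas3, which make short oligoadenylates on sensing double-stranded RNA, the nucleic acid sensor Zbp1, and Ifit3b, Trim30a and Ifit3 had 10, 17, 16, 15, 14, 50 and 55 reads in all 11 libraries together. These 7 did not pass the filter on low counts in any comparison, and their changes could not be tested at this depth.

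**Figure D1:**
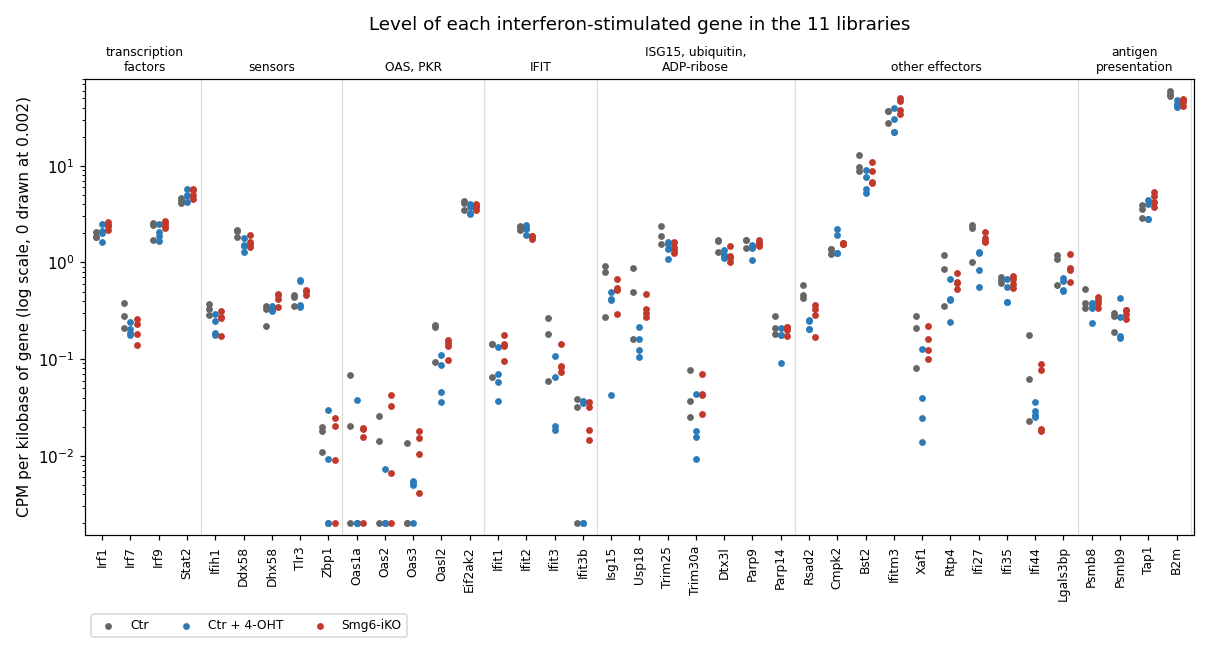
Level of each of the 39 genes as CPM per kilobase of gene (log scale, counts of 0 drawn at 0.002), by role along the horizontal axis, with 1 point per library coloured by group. B2m, Ifitm3 and Bst2 sit at the top in each group, while Oas1a, Oas2, Oas3, Zbp1 and Ifit3b lie at the bottom with points at 0.

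Usp18 and Xaf1, both read at low levels, differed widely from library to library in Ctr, with coefficients of variation of 70.4% and 52.8%. Other members at low levels did not all do so, and Dhx58 was at 23% in Ctr and 4.56% in Ctr + 4-OHT. Usp18, the protease that removes ISG15 and dampens receptor signalling, was read at 0.451, 2.46 and 1.38 CPM in Ctr embryos SMH_128, SMH_132 and SMH_133. It was at 0.447, 0.345, 0.291 and 0.601 CPM in Ctr + 4-OHT and at 0.758, 0.843, 1.33 and 0.918 CPM in Smg6-iKO. The Smg6-iKO libraries all lay above Ctr + 4-OHT, while Ctr embryo SMH_128 fell within Ctr + 4-OHT and embryos SMH_132 and SMH_133 lay above every Smg6-iKO library. Within Ctr the highest Usp18 value was 5.46 times the lowest, as against 1.75 times within Smg6-iKO. Xaf1, an interferon-induced partner of the apoptosis inhibitor XIAP, was at 0.381, 1.31 and 0.995 CPM in Ctr, at 0.186, 0.115, 0.0646 and 0.601 CPM in Ctr + 4-OHT, and at 0.583, 1.03, 0.467 and 0.759 CPM in Smg6-iKO. Again Ctr SMH_132 was highest, and 3 Ctr + 4-OHT libraries were lower than all others.

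The same library stood high for other members. Ctr SMH_132 held the highest value of the 11 libraries in 13 of the 32 members that passed the filter over all libraries, and Ctr + 4-OHT SMH_129 and SMH_125 held the lowest in 10 and 8. Such extremes were not counted over all genes, so whether they are particular to the members is not known. The coefficient of variation of a member's CPM had a median of 20.1% in Ctr, 21.5% in Ctr + 4-OHT and 13% in Smg6-iKO, beside 8.38%, 11.6% and 8.83% over all genes kept, a set read at other levels. The summed CPM of the 39 members was 238 to 270 in Ctr, 196 to 232 in Ctr + 4-OHT and 238 to 260 in Smg6-iKO, so that the 4 Ctr + 4-OHT libraries lay below all others. The microglia and macrophage markers were also lowest in median in Ctr + 4-OHT and highest in Ctr SMH_132, as given above, and their part in these levels was not tested. The list did not move as one, since 9 of its 13 genes had a lower and 4 a higher mean in Ctr + 4-OHT than in Ctr. Cd68, a lysosomal protein, made up most of the sum at mean levels of 2.69 CPM in Ctr, 2.19 in Ctr + 4-OHT and 2.9 in Smg6-iKO. The complement gene C1qa was at 0.262, 0.105 and 0.166 CPM and the leukocyte phosphatase Ptprc at 0.129, 0.182 and 0.225 CPM, both near the floor.

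**Figure D2:**
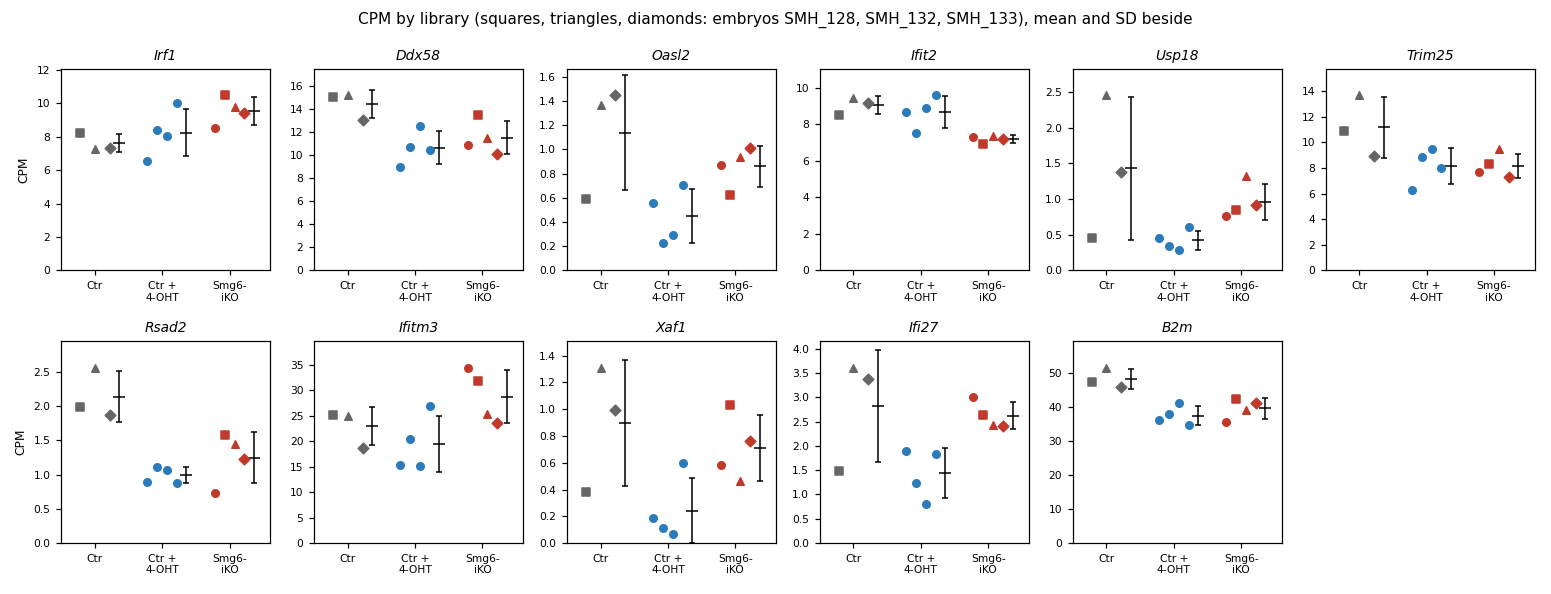
CPM of the 11 members described in most detail, 1 point per library (squares, triangles and diamonds mark embryos SMH_128, SMH_132 and SMH_133), with the group mean and SD beside the points. In Oasl2, Usp18, Xaf1 and Ifi27 the square of Ctr lies below the other Ctr points and the Ctr + 4-OHT libraries lie low, whereas the Smg6-iKO points of Ifit2 all lie below the control points.

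The first comparison, Smg6-iKO against Ctr + 4-OHT, is among cultures that all received 4-OHT and differed in both the deletion and the CreER genotype. No member of the 30 tested passed the edgeR quasi-likelihood test at an adjusted p under 0.05 (Benjamini-Hochberg over all genes), where 1.17% of the 17558 genes tested did. At an unadjusted p under 0.05 there were 10 of 30 members, beside 16.7% of all genes. By DESeq2 1 member, Ifi27, passed, and the DESeq2 share over all genes is not given here. Of the 30, 26 had a positive and 4 a negative log2 fold change, with a median of 0.27 beside 0.01 over all genes. Markers of non-neural cells were also mostly positive in this comparison and none passed the test. All 8 pericyte and fibroblast genes (median 0.42), 5 of 6 endothelial genes tested (0.41) and both microglia and macrophage genes tested (0.35) had a positive value, with Cd68 at 1.87 to 2.49 CPM in Ctr + 4-OHT and 2.54 to 3.61 CPM in Smg6-iKO. Of the 10 neural progenitor genes 8 had a negative value, with a median of -0.16, and none passed the test. The part of these marker genes in the members' values was not tested. The libraries of the groups did not overlap in 3 members, higher for Usp18 and Ifi27 and lower for Ifit2, beside 11% of all genes (5.03% higher and 5.99% lower).

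Xaf1 had a log2 fold change of 1.54 ± 0.52 (SE, adjusted p = 0.172) and Usp18 of 1.19 ± 0.28 (adjusted p = 0.0732). Without Ctr + 4-OHT SMH_131, which held the highest Ctr + 4-OHT value of both, Xaf1 was at 2.53 and passed the test. Oasl2, an OAS-like protein, was at 0.558, 0.23, 0.291 and 0.707 CPM in Ctr + 4-OHT and at 0.875, 0.623, 0.934 and 1.01 CPM in Smg6-iKO. Its log2 fold change was 0.96 ± 0.32 (adjusted p = 0.175), and Smg6-iKO SMH_128 fell within the Ctr + 4-OHT range. Ifi27, a small interferon-induced protein, was at 1.9, 1.23, 0.808 and 1.84 CPM against 3.0, 2.64, 2.44 and 2.4 CPM. All 4 Smg6-iKO libraries were higher, and its log2 fold change was 0.88 ± 0.24 (adjusted p = 0.108). Ifitm3 was at 15.3, 20.5, 15.1 and 26.9 CPM against 34.4, 31.7, 25.4 and 23.5 CPM. Its groups overlapped through Ctr + 4-OHT SMH_131, with a log2 fold change of 0.58 ± 0.19 (adjusted p = 0.168). In the same libraries, the pericyte and fibroblast markers were highest in Smg6-iKO SMH_127 and Ctr + 4-OHT SMH_131, where Col1a1 was at 140.0 and 77.6 CPM as against 19.0 to 37.6 CPM in the other treated libraries. Smg6-iKO SMH_127 also held the highest Ifitm3 value. The part of these markers in the Ifitm3 levels was not tested.

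The second comparison, Smg6-iKO against Ctr, holds the CreER genotype fixed, and 3 of the embryos are in both groups. Of the 32 members tested 2 fell and none rose, beside 9.25% of 17974 genes called, 4.27% higher and 4.98% lower. At an unadjusted p under 0.05 there were 12 of 32, beside 26.9% of all genes. In this comparison 10 members had a positive and 22 a negative log2 fold change, with a median of -0.13 beside 0.0055 over all genes. Without Ctr SMH_132 the median of the members was 0.04. Markers of cell state moved in the same comparison, where 4 of 10 neural progenitor genes fell and Gfap, 1 of 5 astrocyte genes, rose by 1.32 ± 0.32 (SE, adjusted p = 0.0288). None of 6 neuronal genes passed, with a median of 0.28 and 4 at an unadjusted p under 0.05. Of the 8 pericyte and fibroblast genes 1 fell, the smooth muscle actin Acta2, from 3.85, 6.78 and 8.27 CPM in Ctr to 2.65, 0.953, 1.94 and 1.87 CPM (log2 fold change -1.74 ± 0.30, adjusted p = 0.00846). Ctr + 4-OHT was as low, at 0.856, 1.76, 1.91 and 2.61 CPM. The part of these markers in the members' values was not tested. The groups did not overlap in 6 of 32 members, 3 higher (Irf1, Tlr3 and Cmpk2) and 3 lower (Ifit2, Rsad2 and B2m), beside 23.3% of all genes (11.4% higher and 11.9% lower).

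The members that fell were Ifit2 and B2m. Ifit2 (ENSMUSG00000045932, chr19:34550694-34576419 on GRCm38), an RNA-binding inhibitor of viral translation, was at 8.53, 9.46 and 9.18 CPM in Ctr and at 7.32, 6.93, 7.37 and 7.18 CPM in Smg6-iKO. All Smg6-iKO libraries were lower, in a narrow band, and the log2 fold change was -0.33 ± 0.09 (SE, adjusted p = 0.0466). Ctr + 4-OHT libraries, at 8.67, 7.51, 8.88 and 9.61 CPM, also lay above Smg6-iKO, with a log2 fold change of Smg6-iKO over Ctr + 4-OHT of -0.26 ± 0.10 (adjusted p = 0.22). B2m (ENSMUSG00000060802, chr2:122147686-122153083) was at 47.2, 51.4 and 45.8 CPM in Ctr and at 35.5, 42.3, 39 and 41.1 CPM in Smg6-iKO. The groups were apart, with a log2 fold change of -0.29 ± 0.07 (adjusted p = 0.0334). Ctr + 4-OHT, at 36.1, 37.8, 41.0 and 34.6 CPM, lay in the Smg6-iKO range or, for SMH_131, just below it. Both calls were near the threshold. Of 13 alternative analyses, Ifit2 passed in 3 and B2m in 7, with adjusted p from 0.0168 to 0.133 and from 0.00479 to 0.116. Ifit2 was lost on leaving out any single library, and B2m on leaving out Ctr SMH_128 or SMH_132 or Smg6-iKO SMH_127, SMH_132 or SMH_133.

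The shared embryos paired the libraries, and with the embryo as a block 10 of 32 members passed the test, 4 higher and 6 lower, beside 21.4% of all genes (10.3% higher and 11.2% lower). In this fit Smg6-iKO SMH_127, which has no Ctr partner, adds nothing to the difference. The cell markers gained calls in it too, with 6 of 10 neural progenitor genes lower and 1 higher, 4 of 6 neuronal genes higher, and 2 of 5 astrocyte genes higher and 1 lower. Of the oligodendrocyte lineage genes 2 of 5 were higher, of the endothelial genes 1 of 6 tested was lower, and of the pericyte and fibroblast genes 1 of 8 was higher and 2 were lower. Their part in the members' blocked values was not tested.

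Among the transcription factors, Irf1 rose, with a blocked log2 fold change of 0.38 ± 0.09 (SE, adjusted p = 0.00718). Irf1, an activator that binds ISRE sites, went from 8.22 to 10.5 CPM in embryo SMH_128, from 7.26 to 9.81 in embryo SMH_132 and from 7.35 to 9.4 in embryo SMH_133. Its Ctr + 4-OHT levels, 6.55, 8.42, 8.04 and 10 CPM, overlapped both groups. Stat2 rose by 0.21 ± 0.07 (adjusted p = 0.0359). Irf7, the amplifier of the type I response, and Irf9 did not pass in the block fit, at -0.36 ± 0.24 and 0.13 ± 0.09.

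Among the sensors, Ddx58 fell, from 15.01, 15.25 and 12.97 CPM in Ctr SMH_128, SMH_132 and SMH_133 to 13.46, 11.46 and 10.09 CPM in their Smg6-iKO partners (blocked log2 fold change -0.31 ± 0.08, adjusted p = 0.0151). Ctr + 4-OHT, at 8.97, 10.7, 12.5 and 10.4 CPM, overlapped Smg6-iKO and lay below every Ctr library. Ifih1 was lower in the 3 pairs at -0.39 ± 0.16 (adjusted p = 0.103), and Dhx58, the regulator LGP2, was higher in the 3 pairs at 0.58 ± 0.22 (adjusted p = 0.0693). Tlr3, the endosomal receptor for double-stranded RNA, was at 0.25 ± 0.16 (adjusted p = 0.312).

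Among the genes around ISG15 and ubiquitin, Trim25, the ubiquitin ligase that acts on RIG-I, fell from 10.9, 13.7 and 8.95 CPM to 8.29, 9.45 and 7.28 CPM (blocked log2 fold change -0.42 ± 0.09, adjusted p = 0.00402). Trim25 in Ctr + 4-OHT, at 6.25, 8.88, 9.47 and 7.98 CPM, overlapped Smg6-iKO. Dtx3l, a ubiquitin ligase that works with Parp9, fell by 0.36 (adjusted p = 0.0189), while Parp9 was at -0.02 ± 0.11 and Parp14 at -0.18 ± 0.19. The Ctr + 4-OHT levels of Dtx3l, 6.33, 6.89, 6.88 and 7.77 CPM, lay within the Smg6-iKO range of 5.79 to 8.4 CPM. Dtx3l and Parp9 overlap at one end on opposite strands of chromosome 16, and the counting used strand. Isg15, the ubiquitin-like modifier itself, had 118 reads in all libraries and a blocked value of -0.42 ± 0.33 (adjusted p = 0.416).

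Among the effectors, Rsad2 (viperin) went from 1.98, 2.56 and 1.87 CPM to 1.58, 1.44 and 1.23 CPM in the pairs and fell by 0.59 on the log2 scale in the block fit (adjusted p = 0.0275). Ifitm3 went from 25.1, 25.0 and 18.6 CPM to 31.7, 25.4 and 23.5 CPM and rose by 0.23 ± 0.07 (adjusted p = 0.0342), with the pair of embryo SMH_132 nearly level. Cmpk2, a mitochondrial nucleotide kinase and the genomic neighbour of Rsad2 on chromosome 12, was at 0.24 ± 0.11 (adjusted p = 0.125). Within antigen presentation Tap1 rose from 21.3, 19.5 and 15.8 CPM to 29.6, 26.5 and 23.1 CPM (blocked log2 fold change 0.49 ± 0.07, adjusted p = 8.16e-05). B2m fell in the same fit (-0.24 ± 0.06, adjusted p = 0.0109), and Ifit2 as well (-0.34 ± 0.10, adjusted p = 0.0168). The immunoproteasome subunits Psmb8 and Psmb9 were at -0.02 ± 0.22 and 0.29 ± 0.23.

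Counted over embryos without a model, 8 of the 32 members tested were higher in Smg6-iKO in all 3 pairs, 7 were lower in all 3, and 17 were mixed. Over all 17974 genes tested the shares were 25.8% higher, 25.9% lower and 48.3% mixed, so that the members' counts were near those of all genes. Usp18, Xaf1, Oasl2, Ifi27 and Isg15 were in the mixed class. Usp18 went from 0.451 to 0.843 CPM in embryo SMH_128 and was lower in the Smg6-iKO partner of embryos SMH_132 and SMH_133, from 2.46 to 1.33 and from 1.38 to 0.918 CPM. The unpaired log2 fold changes of Usp18, Xaf1 and Ifi27 were -0.59 ± 0.43, -0.35 ± 0.38 and -0.10 ± 0.26, and without Ctr SMH_132 they were 0.08, 0.05 and 0.11. Neither direction passed the test.

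**Figure D3:**
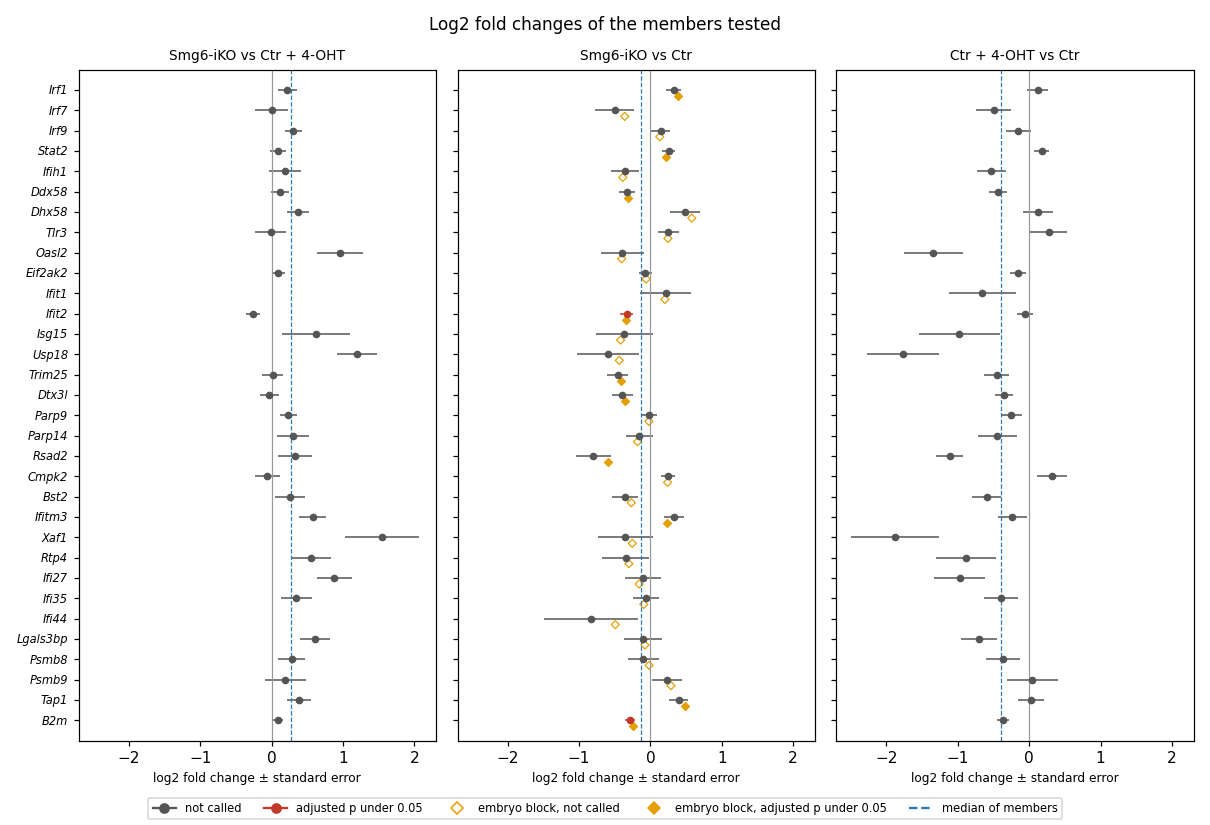
Log2 fold change ± SE of each member tested in the 3 comparisons (circles, red where the adjusted p was under 0.05), with the values from the fit with the embryo as a block as diamonds in the middle panel, filled where they passed the test. Dashed lines mark the members' medians of 0.27, -0.13 and -0.40.

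The comparison of Ctr + 4-OHT with Ctr sets the control groups side by side. Of the 31 members tested none passed the test, beside 0.221% of 17665 genes (0.0396% higher and 0.181% lower). At an unadjusted p under 0.05 there were 12 of 31, beside 8.28% of all genes. DESeq2 called 2, B2m and Rsad2, both lower, and its share over all genes is not given here. Here 7 members had a positive and 24 a negative log2 fold change, with a median of -0.40 beside 0.0045 over all genes, and leaving out single libraries moved this median between -0.46 and -0.30. The comparisons of Smg6-iKO with Ctr + 4-OHT and of Ctr + 4-OHT with Ctr share the Ctr + 4-OHT libraries, so that their opposite medians are not independent of each other. Acta2 was also lower in all Ctr + 4-OHT libraries than in any Ctr library (-1.81 ± 0.34, adjusted p = 0.105), and its part in the members' values was not tested. The groups did not overlap in 3 members, Ddx58, Rsad2 and B2m, all lower, beside 8.71% of all genes (3.8% higher and 4.91% lower).

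Rsad2 had the smallest adjusted p here. It was at 1.98, 2.56 and 1.87 CPM in Ctr and at 0.893, 1.11, 1.07 and 0.883 CPM in Ctr + 4-OHT, a log2 fold change of -1.11 ± 0.19 (SE, adjusted p = 0.0707). The Smg6-iKO libraries at 0.729, 1.58, 1.44 and 1.23 CPM lay below Ctr and spanned the Ctr + 4-OHT values. Xaf1 was at -1.88 ± 0.62 (adjusted p = 0.435), Usp18 at -1.77 ± 0.51 (adjusted p = 0.372) and Oasl2 at -1.34 ± 0.42 (adjusted p = 0.401). Without Ctr SMH_132 these were -1.48, -1.10 and -1.17, and without Ctr + 4-OHT SMH_131 Xaf1 was at -2.86. B2m, read far more deeply, was at -0.37 ± 0.08 (adjusted p = 0.174) and Ddx58 at -0.44 ± 0.12 (adjusted p = 0.351).

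The rest of the pathway was read from other lists. The 20 interferon ligand genes, among them Ifnb1 and the Ifna family, had 0 to 6 reads summed over the list in each library, and none could be tested. A count of 0 for a single-copy gene such as Ifnb1 allows up to 0.115 CPM in the shallowest library. The Ifna genes are close copies of each other, and multiply mapped reads were left out, so their counts give no such limit. The receptors were present, with Ifnar1 at 107 ± 4.90 CPM in Ctr, 114 ± 4.61 in Ctr + 4-OHT and 113 ± 8.22 in Smg6-iKO (SD). None of 5 receptor genes tested passed in any comparison, with 0 at an unadjusted p under 0.05 in each and no receptor called in the fit with the block. Of 12 genes of MHC class I and its regulators, none passed in any comparison, with 1, 1 and 0 at an unadjusted p under 0.05, although Nlrc5, the class I transactivator, rose in the block fit (0.63 ± 0.22, adjusted p = 0.0469).

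Of 9 genes of JAK-STAT signalling, 2 rose in Smg6-iKO against Ctr, beside 4.27% of all genes, and none fell. Tyk2, the kinase bound to the type I receptor, was at 29.3, 28.2 and 27.7 CPM in Ctr and at 30.6, 33.3, 35.5 and 35.7 CPM in Smg6-iKO, a log2 fold change of 0.25 ± 0.07 (SE, adjusted p = 0.0442). In Ctr + 4-OHT it was at 30.4, 28.3, 28.7 and 28.2 CPM, also below every Smg6-iKO library. Socs3, a feedback inhibitor of cytokine receptors, was at 16.5, 14.6 and 15.9 CPM against 23.5, 23.6, 20.1 and 18.6 CPM, a log2 fold change of 0.45 ± 0.10 (adjusted p = 0.0206). The Ctr + 4-OHT libraries, at 18.9, 20, 16.6 and 23 CPM, also lay above every Ctr library (0.33 ± 0.11 over Ctr, adjusted p = 0.471) and overlapped Smg6-iKO. Against Ctr + 4-OHT none of the 9 passed. Of 10 tested adaptors and kinases of nucleic acid sensing, Ikbke alone rose, again against Ctr, where 4.27% of all genes did. This kinase of IRF3 was at 1.07, 1.37 and 1.34 CPM in Ctr and at 2.6, 2.38, 1.8 and 2.31 CPM in Smg6-iKO (0.85 ± 0.18, adjusted p = 0.0203). Ctr + 4-OHT lay between, at 1.23, 1.49, 1.58 and 1.98 CPM, and overlapped both. Tyk2 passed in 7, Socs3 in 10 and Ikbke in 9 of 13 alternatives. Tyk2 and Socs3 were lost when any single Ctr library was left out, and Tyk2 also without Smg6-iKO SMH_132 or SMH_133. Ikbke was lost without Ctr SMH_128 or SMH_132 or Smg6-iKO SMH_127 or SMH_133. Cgas was at 2.22 CPM in Ctr, 1.97 in Ctr + 4-OHT and 2.4 in Smg6-iKO on average, and its groups overlapped in every comparison.

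Of 8 tested genes that remove or edit nucleic acids, 1 fell against Ctr + 4-OHT, beside 0.416% of all genes, 2 fell against Ctr, beside 4.98%, and none rose. Rnaseh2b, a subunit of the RNase H2 enzyme that removes ribonucleotides from DNA, was at 33.1, 35.1 and 33.3 CPM in Ctr, 30.6, 34, 38.3 and 33.2 CPM in Ctr + 4-OHT and 23.9, 27.6, 25.2 and 26.2 CPM in Smg6-iKO. Every Smg6-iKO library lay below every control library. The log2 fold change was -0.40 ± 0.06 against Ctr (adjusted p = 0.00669), past the threshold in all 13 alternative analyses, and -0.39 ± 0.08 against Ctr + 4-OHT (adjusted p = 0.0469), past it in 5 of 13 and, of the libraries left out in turn, only without Ctr + 4-OHT SMH_125. Rnaseh2c, another subunit, fell against Ctr by 0.27 (adjusted p = 0.0487) and passed in 6 of 13 alternatives. It was lost without any single Ctr library or Smg6-iKO SMH_127 or SMH_133. In the block fit Adar, the RNA editing enzyme, also rose (0.14 ± 0.05, adjusted p = 0.0412). Trex1 had 0 counts. Its whole exon length is shared with another annotated gene, and reads shared by genes were not counted.

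Of 40 other interferon-induced genes, 24 were tested against Ctr + 4-OHT and 2 rose, beside 0.757% of all genes. Against Ctr 27 were tested and 2 rose, beside 4.27%. None fell. Mx2, a gene of the Mx GTPase family, was at 2.39, 3.1 and 2.37 CPM in Ctr, 1.3, 1.72, 2.0 and 1.24 CPM in Ctr + 4-OHT and 3.65, 5.17, 5.43 and 3.64 CPM in Smg6-iKO. Whether a working protein is made from it was not tested. The Smg6-iKO libraries were above all control libraries. The log2 fold change was 1.51 ± 0.21 over Ctr + 4-OHT (adjusted p = 0.00882), past the threshold in all 13 alternatives, and 0.76 ± 0.19 over Ctr (adjusted p = 0.034), past it in 8 of 13 and not on leaving out any single Ctr library or Smg6-iKO SMH_132. Helz2, a helicase, was at 4.39, 6.01, 5.33 and 5.19 CPM in Ctr + 4-OHT and at 7.29, 7.85, 7.8 and 7.72 CPM in Smg6-iKO (0.56 ± 0.11, adjusted p = 0.0425), past the threshold in 6 of 13 and not on leaving out any of 7 of the 8 libraries. Helz2 also rose against Ctr in the block fit (0.38 ± 0.11, adjusted p = 0.0237). Ifitm1 rose against Ctr by 1.82 ± 0.45 (adjusted p = 0.0328), from 0.832, 0.543 and 0.689 CPM to 3.53, 3.3, 0.791 and 2.03 CPM, with Smg6-iKO SMH_132 inside the Ctr range. The 8 pericyte and fibroblast markers summed to 389, 391 and 558 CPM in the same Ctr libraries and to 1540, 696, 285 and 572 CPM in the Smg6-iKO libraries, so that Ifitm1 and this sum were both highest in SMH_127 and lowest in SMH_132 among the Smg6-iKO libraries. In Ctr + 4-OHT both were highest in SMH_131, at 1.94 and 914 CPM. The part of these markers in the Ifitm1 call was not tested. Ifitm1 passed in 7 of 13 alternatives and was lost without any single Ctr library or Smg6-iKO SMH_127 or SMH_133. In Ctr + 4-OHT against Ctr no gene of these lists passed, with 5 of 25 other interferon-induced genes at an unadjusted p under 0.05, beside 8.28% of all genes.

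**Figure D4:**
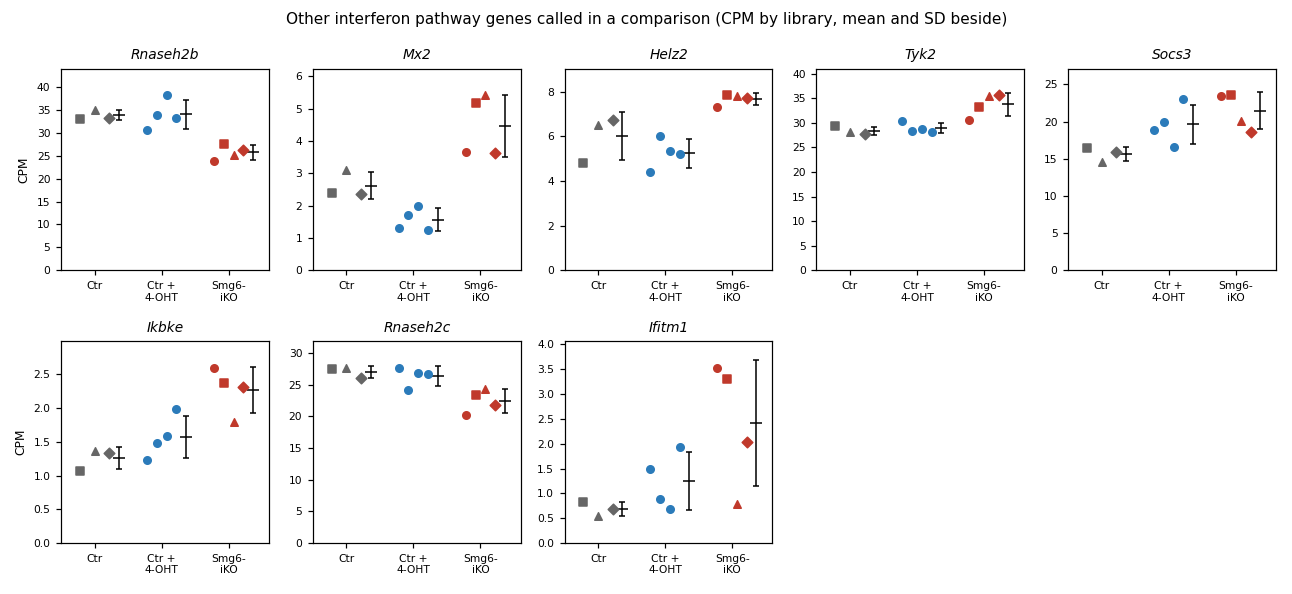
CPM of the 8 other interferon pathway genes described here, each called in a comparison, 1 point per library (squares, triangles and diamonds mark embryos SMH_128, SMH_132 and SMH_133), with the group mean and SD beside the points. The Smg6-iKO points of Mx2 all lie above and those of Rnaseh2b below the control points, while Ifitm1 overlaps.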

How the data were processed

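RNA of 11 neural stem cell cultures was sequenced as single reads of stranded, rRNA-depleted libraries. The authors deposited raw counts per gene, made with STAR 2.5.4b and featureCounts 1.5.0 on GRCm38 with Ensembl 92 annotation, counting reads on the stated strand that map to 1 place and 1 gene. Symbols came from a GENCODE M21 table (53620 of 53801 identifiers). From these counts, each pair of groups was fitted on its own with edgeR 4.0.16 (R 4.3.3): filterByExpr, TMM scaling, quasi-likelihood test, Benjamini-Hochberg over all genes, called at an adjusted p under 0.05. Standard errors are the fold change over the root of the F statistic. CPM used TMM over 11 libraries and 18123 genes. Group mean and SD are over embryos, and the p-values measure the spread between these cultures.

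The members and lists were chosen with earlier results of these data known. Members are described in detail if called in a comparison or among the 5 smallest p of one, which gave 11, and other pathway genes if called, at most 5 a list. Some genes of these lists are not reported here and were left out of the counts over lists. Genes named beyond this rule were named after their values were seen. Same-embryo libraries of Ctr and Smg6-iKO deviated together (mean r 0.383 over 3 pairs, each over 0.1, and -0.128 between different embryos), and the embryo numbers come from the labels. Replicates of a group differed by more than sampling noise (chi-square per gene 11.04 to 43.02). Alternatives were other scalings, no filter, 1 fit of all libraries, DESeq2 1.42.0, the embryo block and leaving out each library. The scripts were tested on simulated counts. Motifs and windows came from RefSeq promoters, and figures were drawn with matplotlib.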

Additional observations from a re-analysis of the deposited data

How the results depend on the processing

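The number of members called moved with the analysis. In Smg6-iKO against Ctr + 4-OHT it was 0, with 3 called without the filter on low counts (Ifi27, Ifitm3 and Usp18), 1 by DESeq2 (Ifi27) and 0 to 1 on leaving out single libraries (Xaf1 without Ctr + 4-OHT SMH_131). In Smg6-iKO against Ctr it was 2, with 1 under upper-quartile scaling, 8 without the filter, 0 with all 11 libraries in one fit, 6 by DESeq2 and 0 to 5 on leaving out single libraries, the 5 without Smg6-iKO SMH_128 and 0 without Ctr SMH_128 or SMH_132 or Smg6-iKO SMH_127, SMH_132 or SMH_133. With the embryo as a block, which pairs the libraries, it was 10. In Ctr + 4-OHT against Ctr it was 0, with 3 without the filter (Rsad2, Usp18 and Xaf1), 2 by DESeq2 and 0 on leaving out each library in turn. Shares of all genes called are given for the main and block fits only, so the other counts are not a result about the members. The causes of these moves were not tested.

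Directions turned in few cases. In Smg6-iKO against Ctr, leaving out single libraries moved the members' median between -0.276 and 0.04, Usp18 between -1.012 and 0.076, Xaf1 between -0.711 and 0.046 and Ifi27 between -0.407 and 0.114, positive without Ctr SMH_132 and, for Ifi27, also without Ctr SMH_133. Trim25 against Ctr + 4-OHT, at 0.01, was -0.001 by DESeq2 and between -0.101 and 0.091 on leaving out single libraries, negative without Ctr + 4-OHT SMH_125 or SMH_131 or Smg6-iKO SMH_132. Over the 11 members, 369 alternative values kept their direction and side of the threshold, 25 newly passed, 16 were lost and 8 turned. Of the other pathway genes, an alternative set chosen after seeing the data, 84 values kept their side and 46 were lost, none with a turned direction.

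Depth limits 7 members, which had 10 to 55 reads in all libraries together, and others read at low levels, with standard errors up to 0.66 for Ifi44. With 3 or 4 libraries in a group, a miss does not show that a gene stayed the same.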
